A study of Caenorhabditis elegans with 24 samples.

Results

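The genes described here encode the proteins of the mitochondrial ribosome, and they were taken as every gene of the count table whose identifier carries a symbol starting with mrpl- (large subunit) or mrps- (small subunit). There were 69 such genes among the 20392 genes of the table, 40 of the large and 29 of the small subunit. Membership rested on names alone and used no measured value, although the group was chosen with earlier results of these data known. The table of gene names held 70 such symbols, of which 1, mrpl-42, was not analysed here. Proteins of this ribosome that carry other symbols, such as dap-3 of the small subunit, fall outside the choice.

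Mitochondria keep a ribosome of their own, which descends from a bacterial ancestor and translates the few messenger RNAs made from mitochondrial DNA, most of them for subunits of the respiratory chain. Its ribosomal RNAs are transcribed inside the organelle by a mitochondrial RNA polymerase, while its proteins are encoded in the nucleus, transcribed by RNA polymerase II, translated in the cytosol and imported. It therefore shares no ribosomal RNA with the cytosolic ribosome, whose large ribosomal RNA precursor is the product of RNA polymerase I (Pol I). In C. elegans, lowering some of these proteins in larval life is known for lengthening lifespan and for inducing the mitochondrial unfolded protein response.

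RNA was sequenced from dissected intestines of adults kept at 20 °C and fed OP50 bacteria. All animals carried ieSi57, a transgene in which the eft-3 promoter, active in many somatic tissues, drives the plant F-box protein TIR1 fused to mRuby with the unc-54 3'UTR, together with Cbr-unc-119(+). The control group, called TIR1, held strains DCW143 and DCW448, for which the labels also list unc-119(ed3). The group called Pol I-AID held strains DCW180 and DCW447, which in addition carry qzIs15. This is a tagged form of the gene rpoa-2 itself, made by inserting a degron and GFP at the start of its coding sequence, so that the Pol I subunit RPOA-2 is made from its own promoter as a fusion that is broken down when auxin is present. Intestines were taken before auxin (0 h, 0 mM) and after exposure to 1 mM auxin for 12 or 24 h, which made 6 groups of 4 biological replicates, or 24 libraries. Animals of 0 h were at day 1 of adulthood and the others were older by their time on auxin, so that within a strain time, auxin and age changed together and cannot be told apart. The strains behind replicate 1 had been outcrossed 1 time (DCW143 and DCW180), those behind replicates 2 to 4 had been outcrossed 3 times (DCW448 and DCW447). The comparison of Pol I-AID with TIR1 on auxin asks what follows loss of a Pol I subunit, and that at 0 h gives the difference between the strains beforehand. Because it is the protein that auxin removes, the rpoa-2 transcript, at 0 to 34 counts per library, is no check of the depletion.

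The libraries held 3.18 M to 29.5 M counts, of which the 6 vitellogenin genes (yolk proteins made by the intestine) took 67.6% to 79.9%, leaving 1.03 M to 9.01 M counts for all other genes. Of 14 intestinal marker genes all were detected, and their summed level, in ppm of the counts outside the vitellogenins, moved with strain. This sum was made up mostly of cpr-6, with 6213892 counts over all libraries against 529829 for the next, asp-1. It was 44125 to 48808 ppm in TIR1 and 49063 to 54990 ppm in Pol I-AID at 0 h, 44865 to 65068 and 61810 to 72064 ppm at 12 h, and 57014 to 66754 and 67225 to 70866 ppm at 24 h, higher in every Pol I-AID library at 0 and 24 h. Germline and oocyte markers summed to 8.14 to 46.5 ppm in 23 libraries and to 426 ppm in Pol I-AID at 0 h, replicate 4. Body wall muscle and hypodermis markers were highest in TIR1 at 0 h, replicate 1, at 616 and 1331 ppm. Hypodermis markers were also at 533 ppm in TIR1 at 0 h, replicate 4. Pharynx markers were at 89.2 ppm in TIR1 at 24 h, replicate 3, and at 0 to 4.86 ppm in every other library. The summed gonad sheath and spermatheca markers (6 of 8 above 3 counts in a library) had the higher mean in Pol I-AID on auxin, at 128 ± 7.11 against 96.7 ± 16.5 ppm at 12 h and 113 ± 18.1 against 87.8 ± 7.74 ppm at 24 h (SD, n = 4). Most of that sum was fln-1, with 11164 counts over all libraries against 1267 for the next, let-502. In contrast, lim-7, inx-8 and inx-9 had 6, 82 and 10 counts and sth-1 had 0, so the sum reads mainly fln-1. The part of the intestinal and other tissue markers in the results was not tested. TIR1 at 0 h, replicate 3, and TIR1 at 24 h, replicate 1, were the shallowest libraries. In bulk tissue, fewer cells of a type and less RNA per cell cannot be told apart.

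Messenger RNAs of the mitochondrial ribosome were rare in these intestines. The 69 genes together received 194 to 1848 counts per library (median 1093), and a single gene received 6 to 5044 counts over all 24 libraries (median 205). In 48 of the 69 genes at least 1 library had no count, and 1 gene never reached 3 counts, the level taken here as the floor of detection. Between 21 and 61 of the genes (median 52) reached that floor in a given library. The filter on low counts kept 48 of them (29 large, 19 small) among the 6903 genes tested, with a median of 12.5 counts per library. The 21 genes that did not pass it (11 large, 10 small) had at most 121 counts over all libraries, and their differences were not tested. Levels below are in CPM (counts brought to a common library size), with library sizes scaled by the trimmed mean of M-values (TMM). The floor of 3 counts covers counting error only, since the reads carry no molecular identifiers. Counts from 1 to 10 were even in 70.1% to 82.4% of cases, so that a small count may stand for fewer fragments than it shows, which was not tested.

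Levels between genes are compared per kb of exon. The median over the 69 genes was 0.499 CPM per kb, 0.478 for the large and 0.525 for the small subunit, and over the 48 that passed the count filter it was 0.694 CPM per kb, against 1.31 CPM per kb over all 6903 genes that passed it. The subunits were thus at like levels, and the typical tested gene of the mitochondrial ribosome sat below the typical tested gene of the whole table. The highest in the large subunit were mrpl-44 (2.81 CPM per kb), whose human counterpart has a fold related to ribonuclease III, mrpl-50 (1.88) and mrpl-10 (1.41), the anchor of the stalk that recruits translation factors in bacterial ribosomes. In the small subunit mrps-11 (2.51 CPM per kb), a protein of the platform, mrps-14 (2.498), a protein of the head, and mrps-5 (2.45), which in bacteria lines the entry of the messenger RNA, led. The lowest among those tested were mrpl-37 (0.283), mrpl-13 (0.392) and mrpl-2 (0.394), the last a neighbour of the peptidyl transferase centre in bacteria, and mrps-35 (0.261), mrps-9 (0.284) and mrps-15 (0.388 CPM per kb). From the highest to the lowest tested gene the level per kb therefore spanned about an order of magnitude within each subunit.

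**Figure D1:**
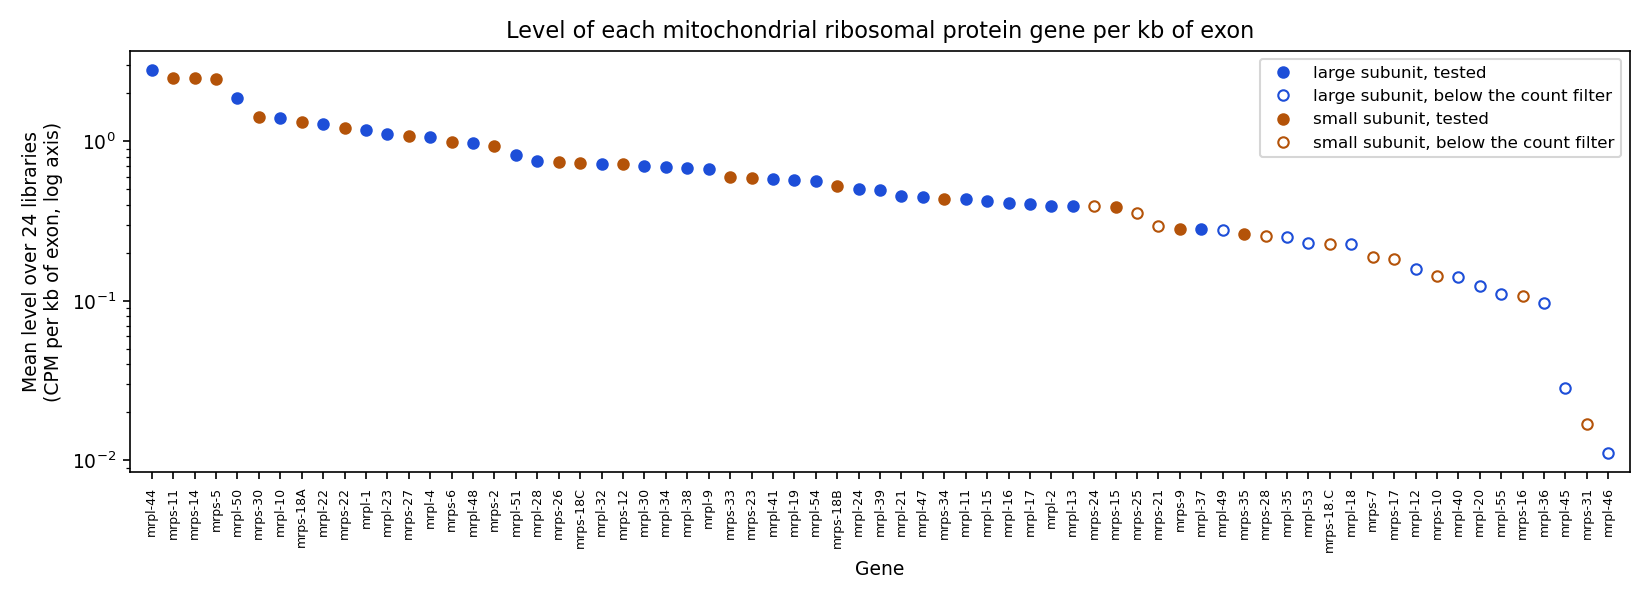
Mean level of each of the 69 genes over 24 libraries in CPM per kb of exon (log axis), ordered from high to low, with the subunit in colour and open circles for genes below the count filter. Large and small subunit genes are interleaved along the whole range, from mrpl-44 at 2.81 downwards, and the genes below the filter lie at the low end.

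Several of these levels rest on the gene model used for counting. The exon length in the deposited table was more than 1.5 times that of the current WBcel235 annotation in 5 genes: mrpl-44 (3706 against 1765 b), mrps-18A (2513 against 811 b), mrpl-4 (1658 against 1011 b), mrps-16 (1156 against 609 b) and mrpl-54 (743 against 402 b). These 5 genes held 28.98% of all counts of the 69, and mrpl-44 alone held 18.9%. In the same annotation mrpl-44 overlaps exons of mccc-2, a subunit of methylcrotonyl-CoA carboxylase, on its own strand by 166 b, mrps-18A overlaps iglr-2 by 195 b and mrpl-1 overlaps emc-6 by 276 b. In all, 6 of the 69 overlapped another gene's exons on the same strand and 13 on the other strand, so their counts may include reads of a neighbour. A protein-coding gene ended within 500 b upstream on the same strand of 26 genes (37.7%), against 18.1% of 19985 protein-coding genes, which is a description of gene spacing and carries no test. The upstream neighbour was itself one of the 69 for 1 gene, mrpl-4 behind mrps-2, and mrps-22 lay behind dap-3.

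At each time the mean summed level of all 69 genes was the lower one in Pol I-AID. At 0 h the 4 TIR1 libraries stood at 63.9, 64.3, 67.1 and 66.5 CPM and the 4 Pol I-AID libraries at 50.5, 57.7, 56.6 and 49.7 CPM, in order of replicate number. All Pol I-AID libraries lay below all TIR1 libraries before any auxin, and the means were 53.7 ± 4.10 and 65.4 ± 1.59 CPM (SD, n = 4), a difference of -17.97%.

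At 12 h the sums were 51.0, 70.1, 59.3 and 66.4 CPM in TIR1 and 45.7, 49.7, 53.8 and 62.8 CPM in Pol I-AID. The ranges overlapped, the means being 61.7 ± 8.42 and 53.0 ± 7.30 CPM, a difference of -14.1%. At 24 h the sums were 49.4, 56.98, 59.2 and 52.5 CPM in TIR1 and 45.7, 35.8, 38.9 and 41.1 CPM in Pol I-AID. The ranges did not overlap, and the means were 54.5 ± 4.41 CPM for TIR1 and 40.4 ± 4.15 CPM for Pol I-AID, a difference of -25.9%. No p is given for these sums, because the genes were chosen with earlier results of these data known.

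The sums depended on what they were scaled to. As ppm of the counts outside the vitellogenins, the differences were -23.025% at 0 h, -1.83% at 12 h and -18.8% at 24 h, and the ranges at 24 h then overlapped. The vitellogenin share moved with strain as well, at 71.3% against 68.4% of counts at 0 h, 75.7% against 72.4% at 12 h and 78.7% against 75.5% at 24 h in Pol I-AID and TIR1. Its ranges in the strains were separate at 0 and 24 h, as were those of the sums of the mitochondrial ribosome. The ranges of the summed intestinal markers, made up mostly of cpr-6, were separate at these times as well and higher in Pol I-AID. The part of either in the sums of the mitochondrial ribosome was not tested. Among the strains outcrossed 3 times alone, the differences in CPM were -17.0%, -15.04% and -31.3%, with 3 libraries per group. Without mrpl-44 they were -19.8%, -11.8% and -29.0%, and without the 5 genes of longer model -22.6%, -12.3% and -28.7%.

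**Figure D2:**
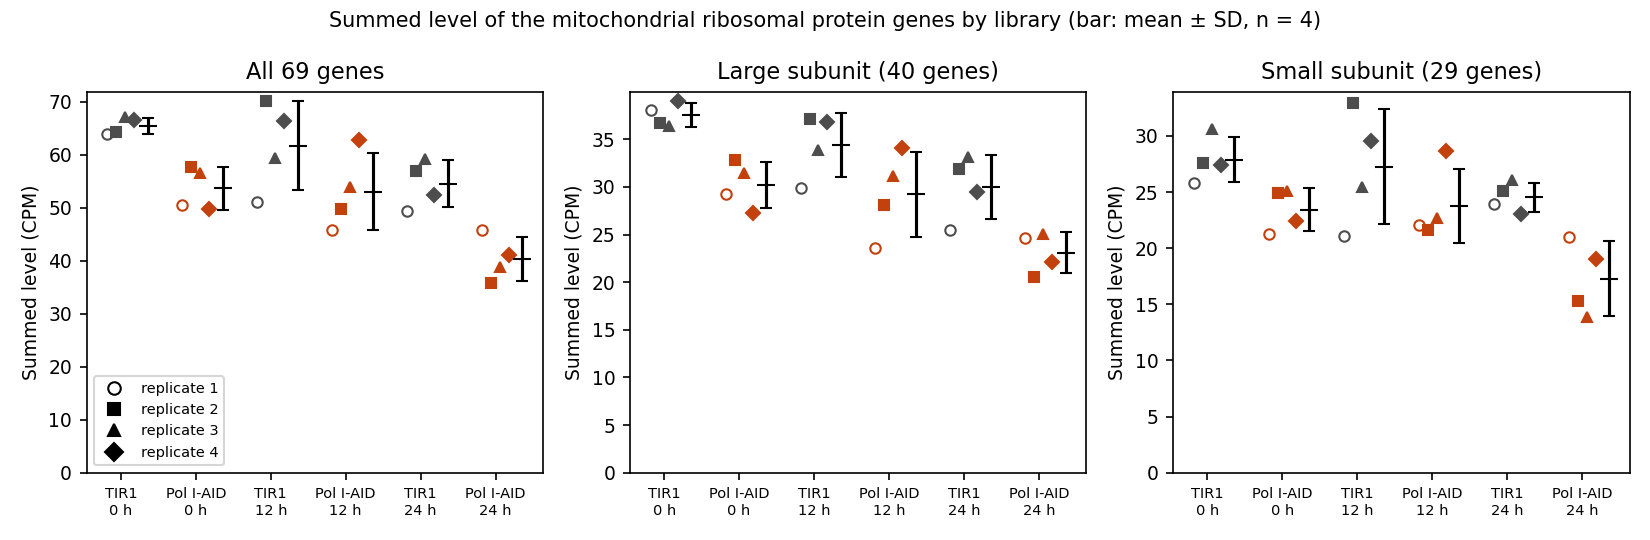
Summed level in CPM of all 69 genes, of the 40 large subunit genes and of the 29 small subunit genes in each of the 24 libraries, with grey for TIR1, orange for Pol I-AID, one marker shape per replicate number (open circles, strains outcrossed 1 time) and bars for mean ± SD. In the left panel the Pol I-AID libraries lie below all TIR1 libraries at 0 h (49.7 to 57.7 against 63.9 to 67.1 CPM) and at 24 h (35.8 to 45.7 against 49.4 to 59.2 CPM), and the groups overlap at 12 h.

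Both subunits had lower sums in Pol I-AID. The large subunit summed to 37.5 ± 1.22 CPM in TIR1 and 30.2 ± 2.43 CPM in Pol I-AID at 0 h (-19.5%), to 34.4 ± 3.35 and 29.2 ± 4.47 CPM at 12 h (-15.1%), and to 29.98 ± 3.38 and 23.1 ± 2.14 CPM at 24 h (-22.98%). The small subunit summed to 27.9 ± 2.01 and 23.4 ± 1.90 CPM at 0 h (-15.9%), to 27.3 ± 5.14 and 23.8 ± 3.30 CPM at 12 h (-12.8%), and to 24.5 ± 1.31 and 17.3 ± 3.32 CPM at 24 h (-29.5%). In both subunits the groups were separate at 0 and 24 h and overlapped at 12 h. The large subunit made up 54.9% to 57.4% of the counts of the 69 genes in the group means, with single libraries from 51.5% to 64.4%, and the strains overlapped in this share at every time.

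Single genes were tested across all 6903 genes with edgeR's quasi-likelihood F-test, and calls required both an FDR (Benjamini-Hochberg adjusted p) under 0.05 and a difference of 2-fold or more. Before auxin none of the 48 tested genes was called in either direction, while over all genes 0.0435% passed with the higher and 0.13% with the lower level in Pol I-AID. At an unadjusted p under 0.05, 3 genes were lower and 0 higher, against 4.94% and 4.1% of all genes, and DESeq2 called 0 as well. The log2 fold change was below 0 in 35 of 48 genes (72.9%, against 45.8% of all genes tested), with a median of -0.30 against 0.04 over all genes. Without the count filter the median over all 69 genes was -0.24. Without the Pol I-AID library that was high in germline markers the median was -0.19, and without the TIR1 library that was high in muscle and hypodermis markers it was -0.32. The median was also taken in each Pol I-AID library against the mean log2 level of the TIR1 libraries, with 0.5 CPM added. It was then -0.14 ± 0.20 (mean and SD over libraries), from -0.38 to 0.10, so the libraries did not share 1 sign.

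The genes with the smallest p at 0 h were mrps-5, mrpl-28 and mrps-22 on the lower side. For mrps-5 the TIR1 libraries had 4.54, 4.48, 7.72 and 4.81 CPM and the Pol I-AID libraries 4.31, 3.86, 2.33 and 3.80 CPM, which gave a log2 fold change of -0.55 (SE 0.26, FDR 0.523). The value rested in part on the shallow TIR1 replicate 3, as it was -0.36 without that library and -0.20 without replicate 3 of every group. For mrps-22 they had 2.49, 2.05, 1.93 and 2.16 CPM and 1.26, 1.70, 1.10 and 1.63 CPM (log2 fold change -0.61, SE 0.30, FDR 0.547). In both genes every Pol I-AID library lay below every TIR1 library, which held for 2 of 48 genes (4.17%, against 2.68% of all genes), yet neither passed the test. For mrpl-28, a protein of bacterial descent, the value was -0.94 (SE 0.44, FDR 0.528) and the groups overlapped. On the higher side stood mrps-18A at 0.29 (FDR 0.765), mrpl-47 at 0.76 (FDR 0.830) and mrps-11 at 0.22 (FDR 0.922), none past the test, and mrpl-47 was at 0.32 without TIR1 replicate 2.

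After 12 h on auxin again none of the 48 was called, where 1.94% of all genes were called higher and 0.522% lower. At an unadjusted p under 0.05, 3 were lower and 0 higher (7.75% and 8.07% of all genes), and DESeq2 called 0. The log2 fold change was below 0 in 32 of 48 (66.7%, against 50.7%), with a median of -0.21 against -0.01 over all genes and -0.20 over all 69 genes without the filter. The median depended on replicate 2. Without TIR1 replicate 2 at 12 h it was -0.04, and without replicate 2 of every group it was 0.03. Taken per Pol I-AID library as at 0 h, it was -0.13 ± 0.16 (SD over libraries), from -0.28 to 0.08.

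The most abundant gene, mrpl-44, had 12.96, 11.7, 10.1 and 11.2 CPM in TIR1 at 12 h and 8.11, 9.47, 8.54 and 8.76 CPM in Pol I-AID. Its groups were separate, and the log2 fold change was -0.40 (SE 0.15, FDR 0.130 by edgeR), so it was not called. For mrpl-10 the TIR1 libraries had 0.878, 2.03, 0.924 and 1.79 CPM and the Pol I-AID libraries 0.336, 0.769, 0.747 and 0.766 CPM, again separate (log2 fold change -1.10, SE 0.47, FDR 0.209). Groups that did not overlap, with Pol I-AID lower, were seen in 4 of 48 genes (mrpl-10, mrpl-44, mrps-5 and mrps-27; 8.33%, against 4.81% of all genes). The third of the smallest p, mrpl-50, was at -0.67 (FDR 0.302), and at -0.41 without Pol I-AID replicate 1. On the higher side mrps-2 was at 0.63 (FDR 0.521), mrps-34 at 0.86 (FDR 0.642) and mrpl-15 at 0.85 (FDR 0.715). Single libraries set the size of the last 2, since mrps-34 was at 0.53 without Pol I-AID replicate 4 and 0.54 without TIR1 replicate 1 of 12 h, and mrpl-15 at 0.20 without Pol I-AID replicate 3 and 0.54 without TIR1 replicate 2.

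After 24 h on auxin 3 of the 48 genes were lower in Pol I-AID and none was higher, that is 6.25% of those tested where 3.36% of all genes were called lower and 4.35% higher. The 3 were mrpl-10, mrpl-54 and mrps-14, all short genes. Among all genes of like length the share called lower was 9.09% from 500 to 750 b, where 2 of the 12 tested genes of the mitochondrial ribosome were called (mrps-14 and mrpl-54), and 3.23% from 750 to 1000 b, where 1 of 13 was (mrpl-10), so that nothing particular to the mitochondrial ribosome is read from this count. DESeq2 called these and mrps-12. At an unadjusted p under 0.05, 8 were lower (16.7%, against 12.6% of all genes) and 0 higher (13.8% of all genes). The log2 fold change was below 0 in 42 of 48 genes (87.5%, against 50.1%), with a median of -0.36 against -0.00 over all genes, and -0.49 over all 69 genes without the filter. Taken per Pol I-AID library as at 0 h, the median was -0.30 ± 0.08 (SD over libraries), from -0.40 to -0.20. Without the shallow TIR1 library of replicate 1 the median was -0.43, without replicate 1 of every group it was -0.57, and in the first of these fits mrpl-10 and mrps-14 were called together with mrps-28, which was outside the genes tested in the full set. Among the genes below the filter, 5 had no count in any Pol I-AID library of 24 h (mrpl-36, mrpl-46, mrps-18.C, which is another entry than mrps-18C, mrps-28 and mrps-31) and 1 had none in TIR1 (mrps-31), and no fold is given for them.

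The counts behind mrpl-10 (WBGene00010458), the stalk anchor, were 2, 27, 31 and 26 in TIR1 and 14, 2, 8 and 2 in Pol I-AID at 24 h, that is 0.509, 1.68, 1.67 and 1.13 CPM against 0.853, 0.106, 0.452 and 0.189 CPM. The groups overlapped because replicate 1 ran the other way, with 2 counts in a shallow TIR1 library and 14 in Pol I-AID. The log2 fold change was -1.69 (SE 0.51, FDR 0.0282). Its level in Pol I-AID was the lower one at 0 and 12 h as well, without a call (-0.91 and -1.10).

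For mrps-14 (WBGene00011334) the counts at 24 h were 4, 39, 49 and 54 in TIR1 (1.02, 2.42, 2.64 and 2.35 CPM) and 13, 10, 22 and 7 in Pol I-AID (0.792, 0.530, 1.24 and 0.660 CPM). Replicates 2 to 4 were well apart, and TIR1 replicate 1 lay below the highest Pol I-AID library. The log2 fold change was -1.44 (SE 0.42, FDR 0.0213), after -0.72 at 0 h and -0.63 at 12 h, neither of them called.

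For mrpl-54 (WBGene00009128) TIR1 had 6, 6, 12 and 36 counts and Pol I-AID 4, 0, 4 and 2 at 24 h, that is 1.53, 0.373, 0.647 and 1.57 CPM against 0.244, 0, 0.226 and 0.189 CPM. Here the groups did not overlap, but the counts were few and TIR1 itself was at 0.426 ± 0.152 CPM at 0 h and 1.03 ± 0.610 CPM at 24 h. The log2 fold change was -2.58 (SE 0.85, FDR 0.0427), and with the replicate number as a block the FDR was 0.0602. The table counts mrpl-54 over a model 1.85 times as long as the annotated one.

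**Figure D3:**
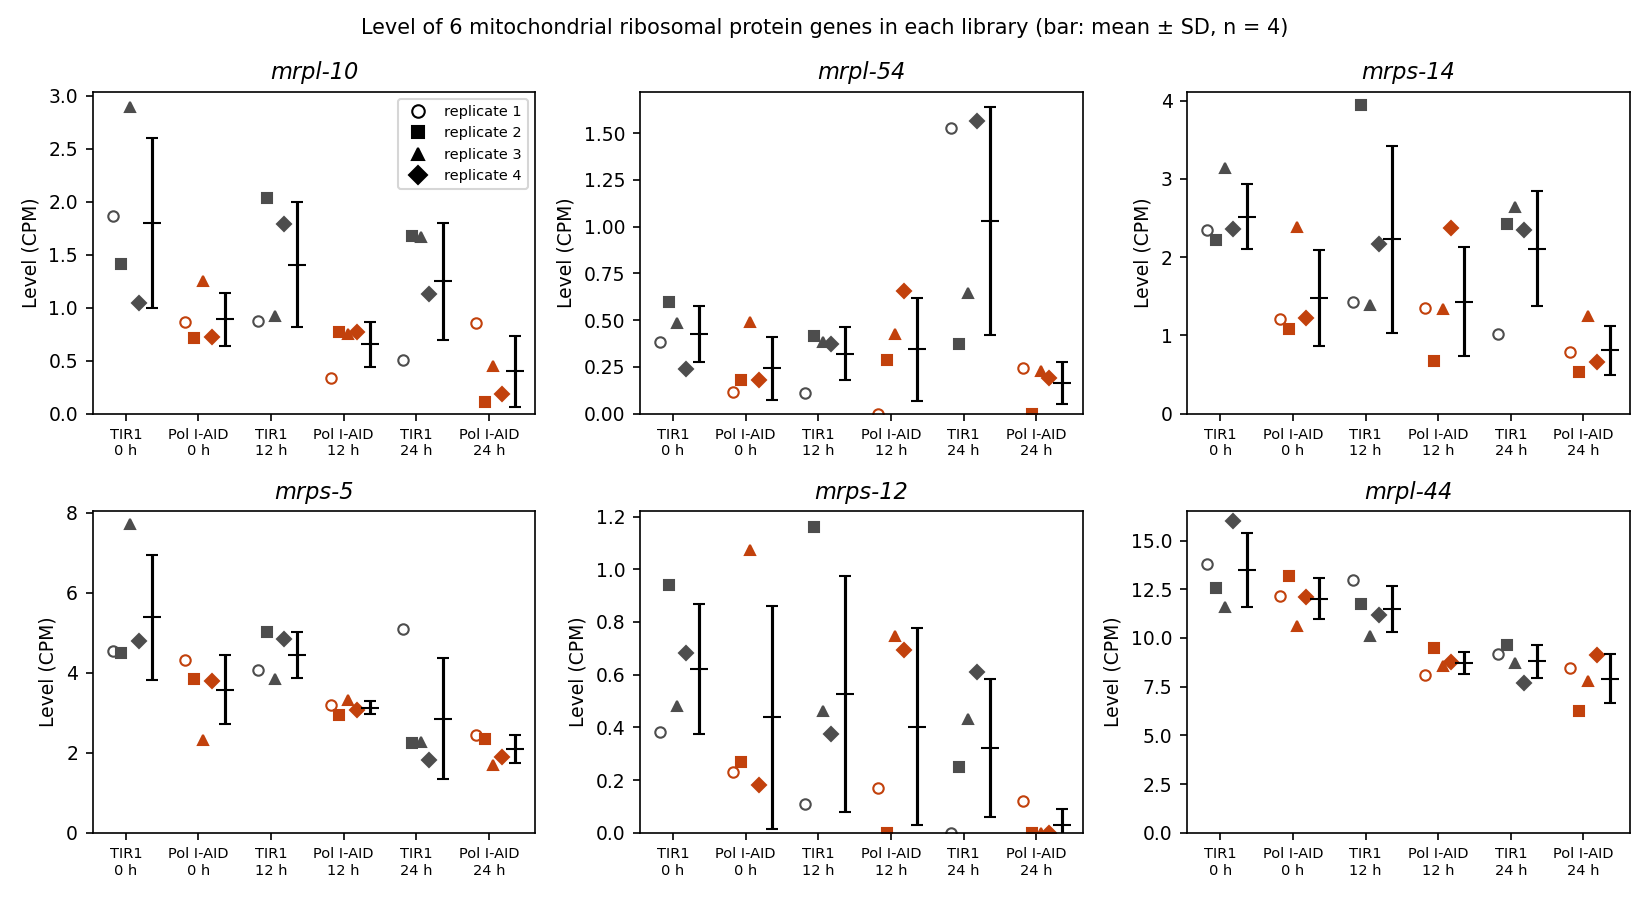
Level in CPM of mrpl-10, mrpl-54, mrps-14, mrps-5, mrps-12 and mrpl-44 in each library by strain and time, with one marker shape per replicate number and bars for mean ± SD (n = 4). At 24 h the 4 Pol I-AID libraries of mrpl-54 lie below all TIR1 libraries, while in mrpl-10 and mrps-14 TIR1 replicate 1 reaches into the Pol I-AID range, and mrps-12 has no count in 3 of 4 Pol I-AID libraries.

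The calls at 24 h were fragile with respect to single libraries. The call of mrps-14 was lost without TIR1 replicate 3 or Pol I-AID replicate 1, 2 or 4 of 24 h, and over all alternatives its FDR ran from 0.0105 to 0.0997. That of mrpl-10 was lost without TIR1 replicate 2 or 3 or Pol I-AID replicate 2, 3 or 4 (FDR 0.00699 to 0.247 over all alternatives). That of mrpl-54 was lost without TIR1 replicate 1, 3 or 4 or any of the Pol I-AID libraries of 24 h, and without TIR1 replicate 1 or 4 of 0 h (FDR 0.0116 to 0.218). The direction was the same in each of these fits.

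Other small subunit genes had lower values at 24 h without passing the test. For mrps-12, whose bacterial counterpart lies at the decoding centre, TIR1 had 0, 4, 8 and 14 counts and Pol I-AID 2, 0, 0 and 0, a log2 fold change of -3.34 (SE 1.21, FDR 0.0694), whose size depends on the prior count of the fit, as Pol I-AID had 2 counts in all. For mrps-33 the counts were 2, 6, 8 and 16 against 0, 0, 2 and 2 (-2.82, SE 1.10, FDR 0.0927). For mrps-6 they were 4, 14, 24 and 23 against 7, 9, 9 and 4, with every Pol I-AID level, 0.377 to 0.509 CPM, below every TIR1 level, 0.870 to 1.29 CPM (-1.21, SE 0.49, FDR 0.111). Groups that did not overlap, with Pol I-AID lower, were seen in 7 of 48 genes (14.6%, against 7.21% of all genes): mrpl-41, mrpl-50, mrpl-54, mrps-18B, mrps-23, mrps-33 and mrps-6. Of these, mrpl-41, mrps-18B, mrps-23 and mrps-6 were named after their values were seen. The 3 genes of smallest p on the higher side were mrpl-16 at 1.05 (FDR 0.501), mrpl-37 at 0.61 (FDR 0.721) and mrps-18C at 0.34 (FDR 0.738), and the value of mrpl-16 rested on 24 counts in Pol I-AID replicate 3, where the other libraries of 24 h had 0 to 6.

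**Figure D4:**
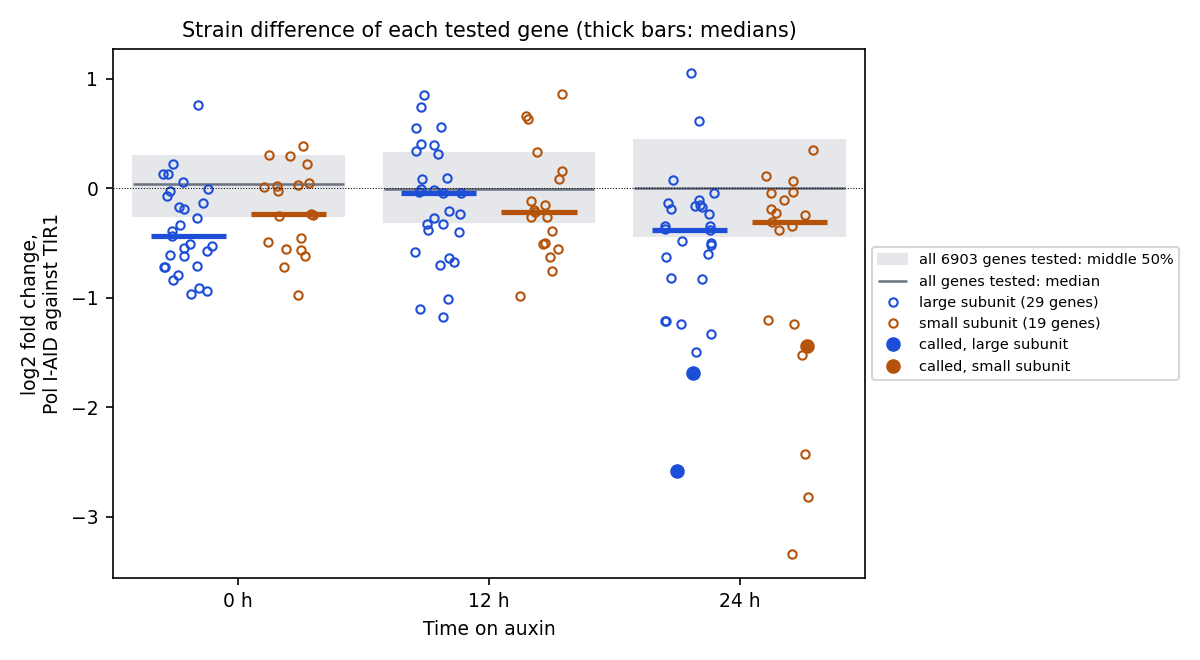
Log2 fold change between the strains (Pol I-AID over TIR1) at each of 0, 12 and 24 h for each of the 48 tested genes by subunit, with thick bars for subunit medians, filled circles for called genes, and a grey band for the middle 50% of all 6903 genes tested. At 24 h 42 of the 48 circles lie below 0 and the 3 filled ones lie at -1.44, -1.69 and -2.58.

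Exon length had to be set apart from subunit or function, because at 24 h the strain difference of all genes varied with it. The genes of the mitochondrial ribosome are short, with a median exon length of 818 b (957.5 b in those tested) against 1588 b over all genes tested. Among all genes the median log2 fold change at 24 h was -1.32 below 500 b (176 genes), -0.46 from 500 to 750 b (539 genes), -0.11 from 750 to 1000 b (744 genes), 0.00 from 1000 to 1500 b (1734 genes), 0.01 from 1500 to 2000 b (1407 genes) and 0.11 above that (2303 genes). The share of genes called lower followed, from 21.6% in the shortest bin through the 2 shares given above to 1.56% in the longest. At 0 h the shortest bin stood at 0.58, on the other side of 0, and at 12 h at 0.25.

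Within each length bin the genes of the mitochondrial ribosome had the lower median at 24 h. It was -2.62 for the 2 below 500 b, -1.21 for 12 from 500 to 750 b, -0.35 for 13 from 750 to 1000 b, -0.24 for 14 from 1000 to 1500 b, -0.10 for 5 from 1500 to 2000 b and -0.27 for the 2 longest. By the deposited lengths all 3 called genes were in the bins from 500 to 1000 b, where mrps-14 measures 705 b, mrpl-54 743 b and mrpl-10 757 b. By its annotated length of 402 b, mrpl-54 would fall in the bin below 500 b. The Spearman correlation of the log2 fold change with exon length was 0.65 across the 48 genes and 0.21 across all 6903. These are correlations across genes that share libraries, and genes are not independent replicates.

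The length trend of each library was then removed before the same test. A lowess curve on log2 exon length was fitted to each gene's log2 CPM minus its mean over all libraries, and entered as an offset. The median at 24 h became -0.32 over the 48 genes, with 37 below 0, and the 3 calls were kept: mrps-14 at -1.12 (FDR 0.0186), mrpl-10 at -1.46 (FDR 0.0367) and mrpl-54 at -2.37 (FDR 0.0474). For mrpl-54 the removal used the deposited 743 b, and its call at the annotated 402 b was not tested. At 0 h the median became -0.45 with 37 of 48 below 0, and at 12 h -0.21 with 33 of 48 below 0. The median before auxin thus lay further from 0 once the length trend was taken out. Across the 48 genes, however, the removal raised the correlation with exon length at 0 h from 0.05 to 0.28. At 12 h it rose from 0.08 to 0.19. The trend of all genes was therefore not that of these 48, and its part in the shift was not tested. The correction was incomplete for the shortest genes, as the bin below 500 b kept a median of -0.29 over all genes at 24 h and the correlation across the 48 genes was still 0.37. A narrower lowess span of 0.2, chosen after seeing this, gave medians of -0.45, -0.20 and -0.32 and the same 3 calls at 24 h. With the length trend removed and the replicate number as a block, mrps-14 alone was called.

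**Figure D5:**
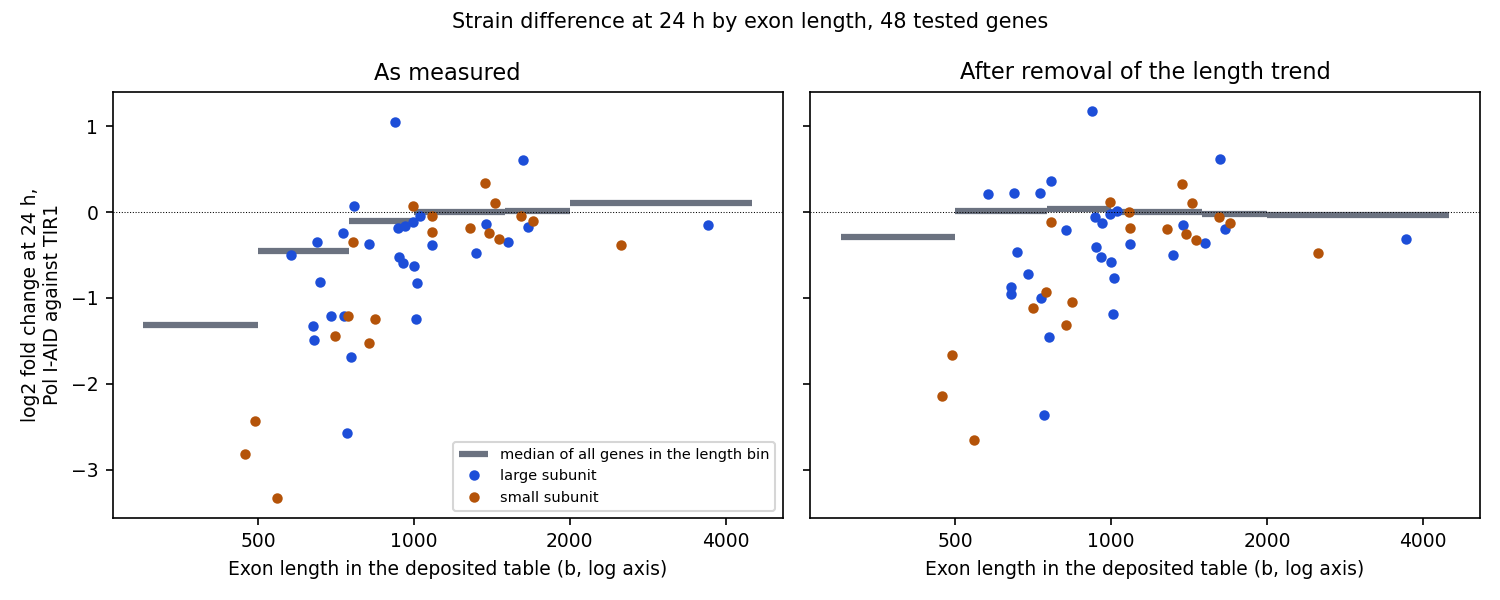
Log2 fold change of Pol I-AID against TIR1 at 24 h against exon length (log axis) for the 48 tested genes, as measured and after removal of the length trend, with grey bars for the median of all genes in each length bin. In the left panel the bars fall to -1.32 below 500 b and the 48 genes fall with them, and in the right panel the bars lie near 0 from 500 b upwards while 37 of the 48 genes remain below 0.

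Large and small subunits were then compared. The median log2 fold change at 0 h was -0.44 in the 29 large and -0.24 in the 19 small subunit genes, at 12 h -0.04 and -0.22, and at 24 h -0.38 and -0.31. The difference, large minus small, was -0.20, 0.18 and -0.07, so its sign was not the same at the 3 times. With the length trend removed it was -0.27, 0.04 and -0.10, and over all 69 genes without the filter it was -0.39, -0.07 and 0.35. At 24 h the lowest values that were not called, those of mrps-12, mrps-33 and mrps-23 (-3.34, -2.82 and -2.43), came from small subunit genes of 471 to 544 b, among the shortest tested. No test of this difference is given, as genes of a subunit are not replicates.

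No strain difference of a gene was shown to change with time on auxin. In the contrast of differences from 0 to 12 h and from 0 to 24 h none of the 48 genes was called, where 1.67% and 3.51% of all genes were called higher and 0.406% and 2.38% lower. At an unadjusted p under 0.05 there were 0 in either contrast (6.14% and 10.3% of all genes higher, 6.04% and 11.2% lower), and DESeq2 called 0. The lower level at 24 h therefore could not be separated from the difference already present before auxin, the median of the 48 genes being 0.09 for 0 to 12 h and -0.16 for 0 to 24 h.

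Within strains, few genes were called between 0 h without auxin and 12 or 24 h with it. In TIR1 none of the 48 was called from 0 to 12 h (2.07% of all genes higher, 0.507% lower, and 0 at an unadjusted p under 0.05, against 8.94% higher and 6.3% lower over all genes, and 0 by DESeq2), and from 0 to 24 h 1 was called lower and 0 higher (3.16% and 6.55% of all genes). This was mrps-5 (WBGene00008452), known from work on worm lifespan, which went from 4.54, 4.48, 7.72 and 4.81 CPM at 0 h to 5.09, 2.24, 2.26 and 1.83 CPM at 24 h, a log2 fold change of -1.01 (SE 0.27, FDR 0.0115). Replicate 1 was not lower, and the value sat at the 2-fold limit, so that the gene was no longer called with the length trend removed (-0.99, FDR 0.0179) or without TIR1 replicate 3 of 0 h (-0.81, FDR 0.0454). Over all alternatives the FDR was 0.000656 to 0.135.

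In Pol I-AID none of the 48 was called from 0 to 12 h (5.71% of all genes higher, 2.42% lower, and 0 by DESeq2). At an unadjusted p under 0.05 there were 0 higher and 1 lower (12.8% and 11.5% of all genes). This was mrpl-44, which passed the FDR, as did 6.35% of all genes on the lower side, but not the 2-fold limit (-0.46, FDR 0.0347). The median over the 48 genes for this step was 0.18, with 15 below 0 (50.9% of all genes). From 0 to 24 h 1 was called lower, mrps-12 (WBGene00011391), and 0 higher (6.53% and 10.8% of all genes). It had 4, 6, 35 and 4 counts at 0 h and 2, 0, 0 and 0 at 24 h, a log2 fold change of -3.60 (SE 1.17, FDR 0.0218), and without replicate 3 of 0 h the FDR was 0.133 (0.00831 to 0.298 over all alternatives). Changes past the FDR but under 2-fold from 0 to 24 h were seen in mrpl-44, mrps-5 and mrps-18A, at -0.61, -0.76 and -0.65, so that 4 of 48 passed the FDR on the lower side with mrps-12, against 12.6% of all genes. The first of these went from 12.0 ± 1.05 to 7.92 ± 1.24 CPM in Pol I-AID and, with a like step, from 13.5 ± 1.92 to 8.80 ± 0.840 CPM in TIR1 (-0.63, FDR 0.00489), where it and mrps-5 passed the FDR, as did 6.87% of all genes on the lower side. Over the 48 genes the median from 0 to 24 h was -0.04 in TIR1, with 28 below 0 (51.5% of all genes), and -0.34 in Pol I-AID, with 38 below 0 (53.5% of all genes), and the difference between the strains in this step is the contrast given above, in which no gene was called.

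Other nuclear genes for mitochondrial proteins were read from lists drawn up by function. Before auxin 0 genes of these lists were called, where 0.0435% of all genes were called higher and 0.13% lower. At 12 h trap-1, from the list of chaperones and proteases, was called lower and nduf-6, of the respiratory chain, higher. Over all genes 1.94% were called higher and 0.522% lower at 12 h. Against the 3.36% of all genes called lower and 4.35% called higher at 24 h, 2 of 12 tested factors of mitochondrial translation and ribosome assembly (29 listed, 13 found in the table) were called lower and 0 higher, namely tufm-1, the mitochondrial elongation factor Tu, at -1.40 (SE 0.32, FDR 0.00389) and tsfm-1, its exchange factor, at -2.09 (SE 0.51, FDR 0.00639). The median of this list was -0.35 at 0 h, -0.27 at 12 h and -0.46 at 24 h. The levels of tufm-1 and tsfm-1 at 24 h were 0.545 ± 0.163 CPM in Pol I-AID against 1.48 ± 0.319 CPM in TIR1 and 0.399 ± 0.301 against 1.74 ± 0.280 CPM. Both, with letm-1, were also called lower within TIR1 from 0 to 24 h (3.16% of all genes). In the contrast of strain differences from 0 to 24 h, 0 of this list were called, where 2.38% of all genes were called lower and 3.51% higher. Of 12 mitochondrial tRNA synthetases 0 were called at 24 h, with medians of -0.085, -0.16 and -0.19 at 0, 12 and 24 h. Of 16 genes listed as chaperones and proteases 2 were called lower. They were trap-1 at -1.85 (SE 0.20, FDR 5.5e-07; 9.50 ± 1.69 against 34.4 ± 4.42 CPM) and the prohibitin phb-2 at -1.44 (SE 0.40, FDR 0.0157). In C. elegans the symbol trap-1 stands for a translocon-associated protein of the endoplasmic reticulum. Its calls are therefore not those of a mitochondrial chaperone, although the median of the list includes it. The median of these 16 was -0.41 at 0 h, -0.40 at 12 h and -0.41 at 24 h, so that it was as low before auxin as after. Within TIR1 from 0 to 24 h 4 of them were called lower (hsp-6, phb-1, phb-2 and trap-1). The contrast of strain differences from 0 to 24 h called 2 lower (lonp-2 and trap-1). Of 45 genes listed for the respiratory chain and ATP synthase 10 were called lower and 0 higher (asg-1, atp-4, cox-15, cox-6A, cox-6B, cox-6C, cyc-2.1, hpo-18, nduf-5 and ucr-11). Not all of the list are subunits, as cox-15 is an assembly factor. Among all genes from 1000 to 1500 b, the bin of the list's median length (1058 b), 2.88% were called lower. Below 500 b it was 21.6%, and calls of this list after removal of the length trend are not given. The contrast of strain differences from 0 to 24 h called 3 of the list lower (atp-4, cox-6C and ucr-11) and 0 higher. The medians of the list were 0.023 at 0 h, -0.22 at 12 h and -0.53 at 24 h, the last -0.49 with the length trend removed. Of 6 genes for the upkeep and transcription of mitochondrial DNA 0 were called, with medians of -0.11, -0.14 and 0.47. Messenger RNAs encoded by mitochondrial DNA were not analysed here.

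The cytosolic ribosomal proteins, whose ribosome does depend on Pol I, give the nearest comparison by function. Of 80 tested, 6 were called lower and 0 higher at 24 h (rpl-22, rpl-26, rpl-30, rpl-34, rpl-36 and rps-25), with a median of -0.86. Over all genes 3.36% were called lower and 4.35% higher. Among all genes from 500 to 750 b, the bin that holds the median length of this list, 9.09% were called lower. Nothing particular to the list is therefore read from this count. The TIR1 libraries differed widely among themselves in these 6, as for rps-25 at 24.2 ± 22.7 CPM beside 7.24 ± 1.18 CPM in Pol I-AID (-1.77, SE 0.52, FDR 0.0237). They are shorter still, with a median of 644.5 b, and with the length trend removed their median was -0.16, against -0.32 for the 48 genes of the mitochondrial ribosome. At 0 h the cytosolic proteins stood at 0.53 (0.23 with the trend removed), on the other side of 0 from those of the mitochondrial ribosome at -0.30 (-0.45). The medians of these lists carry no test, and the 2 lists share every library.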

How the data were processed

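RNA-seq libraries from dissected intestines were prepared by the authors from full-length cDNA and sequenced on an Illumina instrument. Per the methods of the study, reads were trimmed with Trimmomatic, aligned with QuasR (hisat2, spliced) to ce10 and counted in WS220 exons on the same strand, although the kit does not mark strand. The deposited values are raw read counts per gene and library, with the summed exon length of each gene in bases as another deposited column.

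Counts were analysed in R 4.3.3 with edgeR 4.0.16: genes were filtered with filterByExpr, scaled by TMM and fitted by the quasi-likelihood method with 1 mean per group over all 24 libraries (18 residual df, common dispersion 0.111). Standard errors were derived from the F statistic. Calls required a Benjamini-Hochberg adjusted p under 0.05 over 6903 genes and at least 2-fold. The length trend was a lowess curve (span 0.5, prior count 2) entered as an offset. Replicate correlation within groups was 0.931 to 0.974. Symbols were matched to 19182 identifiers.

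The members and lists were chosen with earlier results of these data known. Genes were named when called in any contrast, when among the 3 smallest p in either direction of a strain comparison, when among the 3 highest or lowest tested per kb of a subunit, or when longest or shortest, and mrps-5 was named throughout. Replicate numbers were shared by all groups. Same-numbered libraries of the strains deviated together at 0 h (correlations 0.33, 0.27, 0.18 and 0.29) but not in all pairs at 12 h (0.51, -0.14, 0.06 and -0.02) or 24 h (-0.15, 0.21, 0.16 and 0.06). The numbers thus paired all libraries at 0 h and only some at 12 and 24 h. Alternatives were the replicate block, 4 other scalings, DESeq2 1.42.0, 2 other filters, the compared groups alone, adjusted p alone, removal of the length trend, and leaving out each replicate or library. A narrower span of 0.2 and the omission of 5 genes with longer models were added after seeing the data.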

Additional observations from a re-analysis of the deposited data

Results flagged for a closer look

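The 3 summed levels and the levels of 29 genes named with values, 32 series in 6 groups of 4 libraries, were examined for a library far from the other 3, by Dixon's gap over the group's range at the 95% level. Of the 192 groups, 16 had such a library. A rate of about 1 in 20 by chance holds only for independent values of normal spread. Many counts here were small, the series share libraries, and some genes were named by their values. The 16 are therefore a list to look at, and no excess over chance is read from them.

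The sum of the small subunit in Pol I-AID at 12 h was 28.7 CPM in replicate 4 and 21.6 to 22.7 CPM in the others. In the large subunit gene mrpl-54, TIR1 replicate 1 at 12 h was low at 0.1098 CPM (others 0.373 to 0.415), and in mrpl-10, Pol I-AID replicate 1 at 12 h was low at 0.336 CPM (others 0.747 to 0.769). Replicate 3 at 0 h stood high in mrps-14 in both strains, at 3.14 CPM in TIR1 (others 2.22 to 2.36) and 2.39 CPM in Pol I-AID (others 1.08 to 1.22). The TIR1 library is the shallowest of the series. It was also high in mrps-5, at 7.72 CPM (others 4.48 to 4.81), and Pol I-AID replicate 3 at 0 h was high in mrps-12, at 1.07 CPM (others 0.181 to 0.269). At 24 h TIR1 replicate 1 had 5.09 CPM of mrps-5 (others 1.83 to 2.26), and Pol I-AID replicate 1 had 0.122 CPM of mrps-12, that is 2 counts where the others had 0.

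At 12 h TIR1 replicate 3 was low in mrps-18B, at 0.385 CPM (others 0.746 to 0.769), and high in mrps-27, at 2.27 CPM (others 1.70 to 1.76). In mrpl-16 TIR1 replicate 2 was high at 0 h, at 1.02 CPM (others 0 to 0.0957), and low at 12 h, at 0.332 CPM (others 0.523 to 0.549), and Pol I-AID replicate 3 at 24 h was high, at 1.36 CPM (others 0.189 to 0.244). At 24 h mrpl-28 was at 0.916 CPM in TIR1 replicate 3 (others 0.479 to 0.509), and mrpl-47 at 0.113 CPM in Pol I-AID replicate 3 (others 0.530 to 0.566).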

How the results depend on the processing

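The counts of genes called at 0 h, at 12 h, in both contrasts of strain differences over time and in TIR1 from 0 to 12 h were 0 under every alternative. At 24 h, where 3 genes were called, 1 was called with the length trend removed and the replicate block (mrps-14) and with the compared groups alone (mrps-14), and 0 with at least 10 counts required in every library, which left 3 of the genes tested. Leaving out 1 replicate or library gave 0 to 5 calls at 24 h, with 0 without TIR1 replicate 3 or Pol I-AID replicate 2 or 4 of 24 h, 1 without Pol I-AID replicate 3 of 24 h, and 5 without Pol I-AID replicate 2 of 12 h. With the replicate block alone 2 were called at 24 h (mrpl-10 and mrps-14) and the medians were -0.40, -0.18 and -0.35 at 0, 12 and 24 h. The block changed no other call. In the check of pairing, 6 of 12 pairs correlated best with their own number.

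The call of mrps-5 in TIR1 from 0 to 24 h, a count of 1, became 0 under RLE scaling, TMM without vitellogenins, no count filter, removal of the length trend with either span or with the block, and the compared groups alone, 4 under total count scaling, 2 by adjusted p alone, and 0 to 1 when 1 replicate or library was left out. From 0 to 24 h in Pol I-AID the count of 1 became 2 under total count scaling and with a span of 0.2, 4 by adjusted p alone, 0 with at least 10 counts and with the compared groups alone, and 0 to 2 when 1 was left out. From 0 to 12 h in Pol I-AID 1 gene passed by adjusted p alone.

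The median log2 fold change was -0.52 at 0 h and -0.44 at 24 h under total count scaling, which also moved the median of all genes to -0.18 and -0.08, and to -0.41 and -0.32 from 0 to 24 h in TIR1 and Pol I-AID. At 24 h it was -0.49 without a filter and -0.25 with at least 10 counts. When 1 replicate or library was left out it ran from -0.48 to -0.14 at 0 h, -0.33 to 0.026 at 12 h and -0.57 to -0.35 at 24 h. The difference large minus small was -0.39, -0.068 and 0.35 at 0, 12 and 24 h without a filter, -0.067 at 12 h with at least 10 counts and 0.019 at 12 h with a span of 0.2, and with 1 left out it ran from -0.44 to -0.034, -0.19 to 0.18 and -0.37 to 0.23.

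Among genes with higher values, mrps-11 at 0 h turned to -0.0017 under total count scaling and ran from -0.16 to 0.46 with 1 left out, mrpl-16 at 24 h ran from -0.16 to 1.33, and mrpl-37 at 24 h from -0.010 to 1.83. The causes were not tested. With a median of 12.5 counts per library among the genes tested, the precision of single genes was limited by their counts.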
